A study of Mus musculus with 4 samples.

Results

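The V segments of the mouse T cell receptor alpha locus (Tcra) were followed along the chromosome in ATAC-seq peak lists of thymocytes at an earlier and a later stage. All Trav and Trdv segments between Trav1 and Trav23 on chromosome 14 (mm10, 52427967 to 53977678, 1550 kb) were taken from the RefSeq gene table of the same build, which gave 133 of the 547 V segments that the table holds over all receptor loci. They comprise 120 Trav segments, 10 segments named for both the alpha and the delta chain (Trav/Dv) and 3 Trdv segments, and 16 of the 133 are annotated as pseudogenes. ATAC-seq uses a transposase to insert sequencing adapters into open DNA, so a peak marks a stretch that the enzyme could reach. The later group comprised 2 samples of CD4+ CD8+ double-positive (DP) cells, and the earlier group 2 samples of CD4- CD8- double-negative (DN) cells with the surface phenotype CD25+ CD44-/+. Both came from the thymus of wild-type C57BL/6J mice 5 to 7 weeks old. Separate mice are not named for the 2 samples of a group, and p-values then measure only a spread that could be technical.

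A functional T cell receptor gene is assembled by the RAG recombinase, which joins a V to a J segment at the recombination signal that flanks each of them. At Tcra this happens in DP thymocytes, where accessible V segments near the J cluster are used early and more distant V segments are used in later joins, each join removing the DNA in between. Beta chain joining precedes it in DN cells, and the delta chain segments lie inside the Tcra locus. The V segments of this interval share the orientation of the J segments, so the low-coordinate end of a segment carries its promoter and leader and the high-coordinate end its recombination signal.

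The lists held 39718 and 70385 peaks in DP 1 and DP 2, and 38808 and 33131 peaks in DN 1 and DN 2. Without read counts in these lists the depth is unknown, and closed sites and thinly sequenced ones cannot be told apart. The labelled cell types were checked on marker genes, counted when a peak lay in the gene or within 500 bp of it. Of 6 markers of the DP stage, 6 had a peak in each DP list, against 4 in DN 1 and 3 in DN 2, and Cd8a and Cd8b1 had none in either DN list. Of 5 markers of CD25-positive DN cells, 4 and 5 had a peak in DP 1 and DP 2, against 5 in DN 1 and 1 in DN 2, where Il2ra, the gene of CD25, had none. Markers of other cells with a peak numbered 2 and 3 of 6 for B cells in the DP lists against 2 in each DN list, and 3 and 2 of 5 for myeloid cells against 1 in each DN list. For NK cells they numbered 1 and 2 of 4 in the DP lists against 0 in each DN list. For erythroid cells they numbered 2 of 3 in each DP list against 0 and 1 in the DN lists, for stroma 3 and 2 of 4 against 2 and 1, and for gamma-delta T cells 2 and 1 of 3 against 1 and 0. Their part in the results was not tested.

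The Tcra V segments carried peaks mainly in DP cells. Peaks with their midpoint in the interval numbered 38 in DP 1 and 52 in DP 2, against 3 in DN 1 and 2 in DN 2. Some peaks of the same DP list overlapped each other. Each was counted in all counts of peaks, so some sites count more than once there. A segment was counted as having a peak when one overlapped it or lay within 500 bp. This held for 24 segments in DP 1 and 35 in DP 2, or 29.5 ± 7.78 (SD, n = 2), against 3 in DN 1 and 1 in DN 2, or 2 ± 1.41. The groups did not overlap in either count. The difference of 27.5 segments had an exact permutation p of 0.333 (two-sided), the smallest that 2 samples against 2 can give. Per 10000 peaks of a list the interval held 9.57 and 7.39 peaks in DP 1 and DP 2, against 0.773 and 0.604 in DN 1 and DN 2, and the groups did not overlap on this scale either. Whether fewer cells with an open segment or less opening per cell lies behind a missing peak cannot be told apart in bulk samples.

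The same counts over the genome give the background. Of the tiles of 1500 bp, close to a segment with its margins, that cover chromosomes 1 to 19, X and Y, 2.49% in DP 1 and 4.34% in DP 2 held a peak, against 2.45% in DN 1 and 2.07% in DN 2. The V segments stood at 18.0% and 26.3% in the DP lists, well above those shares. They stood at 2.26% in DN 1, close to its tile share, and at 0.752% in DN 2. With the peak on Trav1 whose midpoint lies just outside the interval, DN 1 stood at 3.01%.

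**Figure D1:**
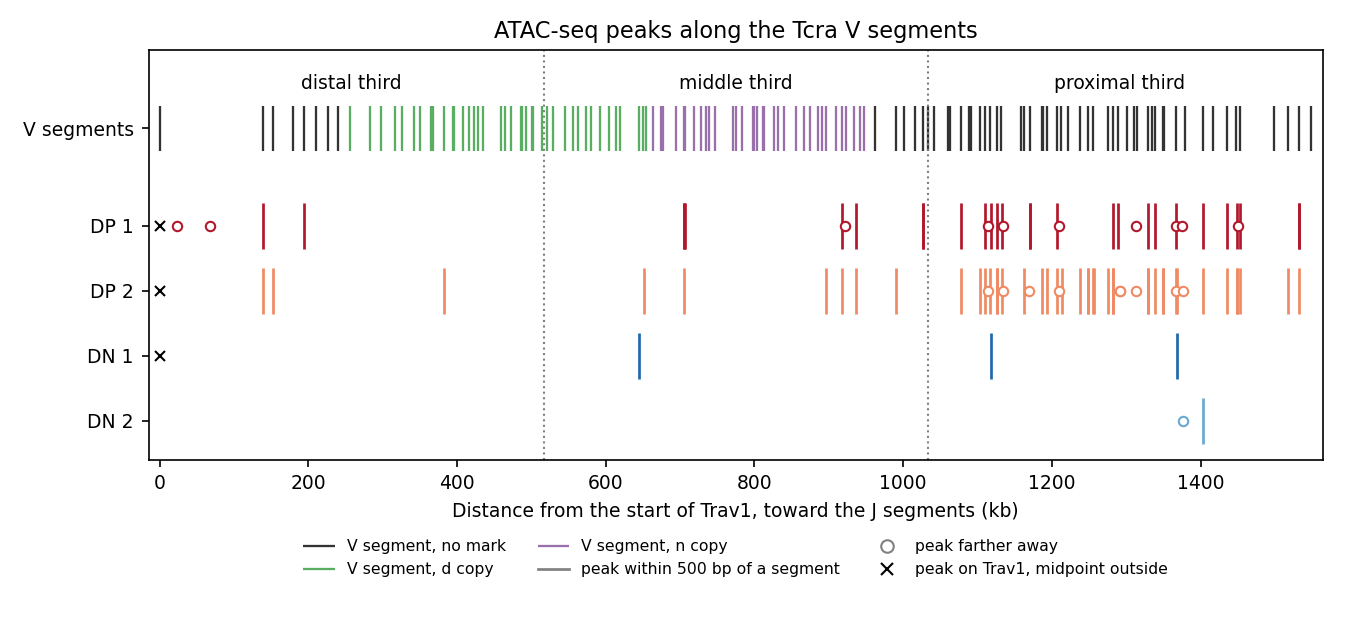
Peaks of each list along the interval, placed by their distance in kb from the start of Trav1; vertical ticks are peaks within 500 bp of a V segment, open circles are peaks farther away, crosses are peaks on Trav1 whose midpoint lies just outside, and the top row shows the 133 V segments by copy mark. DP peaks crowd the part beyond 1000 kb, and the DN lists hold 3 and 2 peaks.

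Segments with a peak in both DP lists and in neither DN list (DP-only) numbered 16 of 133. Those with the opposite pattern (DN-only) numbered 0. With DP 2 as the sole DP list 32 segments were DP-only, and in the top 50% of each list by p-value 10 were. Of the genome tiles 0.615% were DP-only and 0.196% DN-only. Of the 414 V segments of other loci 8.21% were DP-only and 0.725% DN-only. Of these 34 DP-only segments 33 lay in the immunoglobulin heavy chain locus (Igh), a share of 18.0% of its 183 V segments. At the beta chain locus (Tcrb) 0 of 35 V segments were DP-only. Of the protein-coding genes, with their whole span widened by 500 bp, 10.3% were DP-only and 0.745% DN-only. The share of DP-only Tcra segments, 12.03%, was close to that of genes and above that of tiles of similar size. It lay between the shares at Igh and Tcrb. Peaks in both DP lists, whatever the DN lists held, were found at 19 segments (14.3%), against 1.67% of tiles and 11.8% of the other V segments. The 3 of these that were not DP-only had a peak in 1 DN list. A further 21 had one in a single DP list, and 92 had none in any list.

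The peaks lay mainly at the end of the locus near the J segments. The interval was divided into 3 parts of equal length (517 kb each), called distal, middle and proximal by their distance from the J segments. In the proximal part 17 of 46 segments had a peak in DP 1 and 26 in DP 2. In the middle part these numbers were 5 and 6 of 53, and in the distal part 2 and 3 of 34. DN 1 had a peak at 2 proximal, 1 middle and 0 distal segments, and DN 2 at 1, 0 and 0. DP-only segments numbered 12 in the proximal, 3 in the middle and 1 in the distal part, and segments without a peak in any list 18, 44 and 30. The share of segments with a peak was higher in the proximal than in the distal part by 31.1 and 47.7 percentage points in DP 1 and DP 2, against 4.35 and 2.17 points in DN 1 and DN 2 (exact permutation p = 0.333, two-sided). Segments with a peak in both DP lists had their median start 1207 kb from that of Trav1, against 694 kb for segments with no DP peak.

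Part of this division coincides with a duplicated stretch of the locus. In C57BL/6 mice the central V cluster exists in several copies, and RefSeq marks 40 segments with d and 34 with n, in 2 blocks from 256 to 655 kb and from 663 to 947 kb. Of the proximal segments none carries a mark, while 26 of the 34 distal and 48 of the 53 middle segments do. Among the 8 unmarked distal segments 2 had a peak in each DP list, against 17 and 26 of the 46 unmarked proximal ones. With unmarked segments alone the excess of the proximal part was 11.96 and 31.5 points in DP 1 and DP 2, against 4.35 and 2.17 in DN 1 and DN 2, and the difference between stages fell to 18.5 points, against 36.1 with all segments. These 8 distal segments include Trav1, which peaks of DP 1, DP 2 and DN 1 cover with midpoints just outside the interval. Counting those peaks too, 3 of the 8 had a peak in each DP list, and proximal minus distal was -0.54 and 19.02 points in DP 1 and DP 2, against -8.15 and 2.17 in DN 1 and DN 2. The difference between stages was then 12.2 points (exact permutation p = 0.667, two-sided), so among unmarked segments DP 1 showed no proximal excess once Trav1 was counted. How reads that fit several copies were placed is not given in the sources used here, and its part in the low counts of marked segments was not tested.

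**Figure D2:**
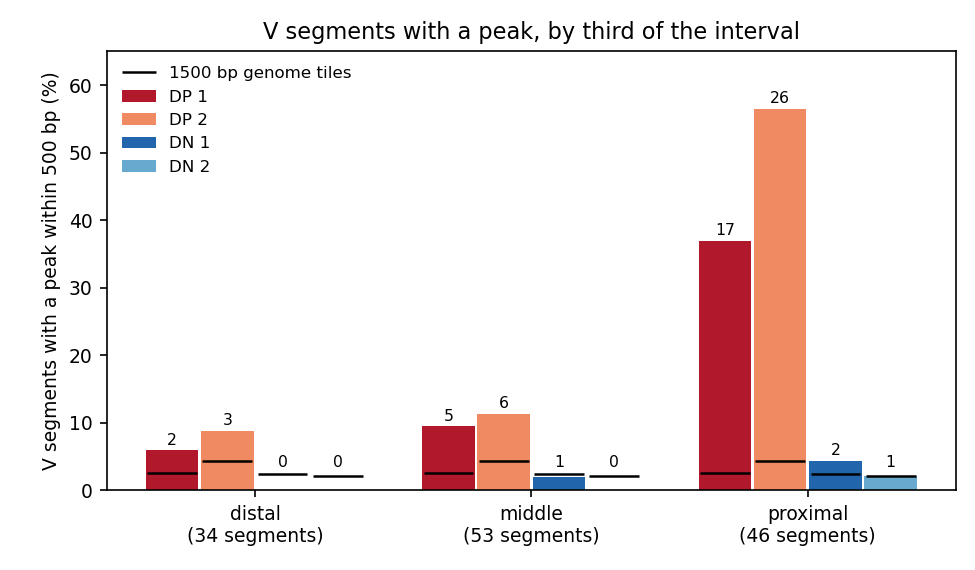
Percentage of V segments with a peak within 500 bp in each list, by distal, middle and proximal part of the interval; numbers over the bars are segments, and black lines give the share of 1500 bp genome tiles with a peak in the same list. The proximal bars of DP 1 and DP 2 stand for 17 and 26 of 46 segments, and no DN bar exceeds 2 segments.

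In the distal part the only DP-only segment was Trav2 (52567293 to 52568053). Its region (52566801 to 52567400) covered the start of the segment, and 35.5% of DP 1 peaks and 19.2% of DP 2 peaks had a lower p-value. A peak in a single DP list was found at 3 distal segments. Trav1, the most distal segment, had no peak with its midpoint in the interval. Peaks did cover its start in DP 1, DP 2 and DN 1 (52427501 to 52428200 in DP 1, 52427451 to 52428200 in DP 2 and 52427701 to 52428050 in DN 1), with midpoints 117, 142 and 91.5 bp before it. In DP 1 this peak was at 1e-12, the lowest p-value in each of the 4 lists, so other peaks may share its rank. In DP 2 only 7.15% of peaks had a lower p-value than the peak on Trav1, while in DN 1 its peak was tied at the largest p-value of the list. Trav1, at the far end of the locus, was thus covered in 3 of the 4 lists by peaks just past the limit that defines the members. Counting these peaks left the DP-only segments at 16.

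In the middle part the DP-only segments were Trav6n-6, Trav8n-2 and Trav13n-4, which all carry the n mark. The region on Trav13n-4 (53363851 to 53364500) ranked high in both lists, with 17.2% of DP 1 peaks and 16.3% of DP 2 peaks at a lower p-value. Trav6n-6 also had a peak in DP 1 over its far end. A peak in a single DP list was found at 5 middle segments, and Trav13d-4 had a peak in DN 1 alone.

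In the proximal part the DP-only segments were Trav10, Trav12-1, Trav14-1, Trav15-1-dv6-1, Trav13-2, Trav6-7-dv9, Trav13-4-dv7, the pseudogenes Trav15-3 and Trav20, Trav21-dv12, Trdv1 and Trdv2-2. Trav12-1 (53538266 to 53538738) carried the region of best mean rank of the interval (53537751 to 53538350), with 20.6% of DP 1 peaks and 6.45% of DP 2 peaks at a lower p-value. Trdv1 (53881612 to 53882217) followed among the proximal segments, with 25.6% and 14.4%. Trdv2-2 ranked lowest of the 16, since its peaks were tied at the largest p-value of each DP list. Trav13-1, Trav13-5 and Trav18 had a peak in both DP lists and in 1 DN list. At Trav10, Trav13-1 and Trav18 the peaks of DP 1 and DP 2 did not overlap each other: one list marked the start of the segment and the other its end. A peak in a single DP list was found at 13 proximal segments. The last segment, the pseudogene Trav23, had none.

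Merged over the 4 lists, the peaks of the interval gave 61 regions, of which 20 were DP-only and 0 DN-only, against 7.44% and 2.51% of all merged regions of the genome. With a single DP list there were 44 DP-only regions without DP 1 and 34 without DP 2, and in the top 50% of each list 13. Of the 20 DP-only regions found with all lists, 15 overlapped a segment, and 11 of the 15 covered its low-coordinate end, where the promoter lies. The other 4, on Trav13n-4, Trav15-1-dv6-1, Trav13-4-dv7 and Trav21-dv12, covered the high-coordinate end instead, where the recombination signal lies. Their midpoints were within 78.5 bp of that end. Over all peaks near a segment, the midpoint lay before the start in 20 of 28 in DP 1 and 27 of 43 in DP 2, with medians of -103 and -76.5 bp from the start. Peaks within 500 bp of a segment made up 73.7% of the interval's peaks in DP 1 and 82.7% in DP 2, while the segments with their margins cover 13.0% of its length. A peak counted when any part of it reached these margins, so evenly placed peaks would exceed 13.0%. No region lay between 136 and 505 bp from a segment, so the limit of 500 bp fell in a gap of the data.

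**Figure D3:**
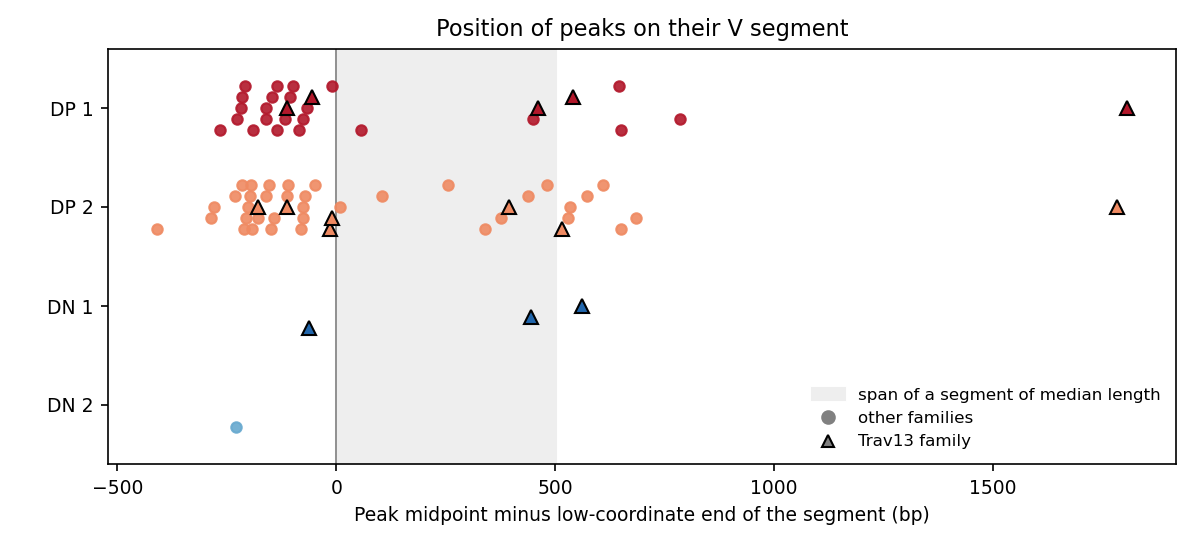
Midpoint of each peak within 500 bp of a V segment, in bp from the low-coordinate end of that segment, per list; triangles are the Trav13 family and the grey band is a segment of the median length of 502 bp. DP peaks form a cluster just before the start and a smaller one near the far end, and the 2 triangles past 1500 bp belong to Trav13n-4, whose annotated span of 1739 bp is longer than those of its namesakes.

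The Trav13 family had the most segments with a peak in both DP lists, 5 of 13, namely Trav13n-4, Trav13-1, Trav13-2, Trav13-4-dv7 and Trav13-5. Its 12 DP peaks, counted per list on these 5 segments, were split evenly, 6 before the start and 6 at or past it. In the other families together 41 of 59 lay before the start, as did the majority in most of them. Trav15, with 2 of 4, and Trav18, with 1 of 2, were also split evenly. Trdv2 had 2 of 4 before the start too, but all its midpoints lay close to the start, from -67.5 to 57.5 bp. Trav9 had 1 of 3 and Trav21 0 of 3 before the start. These counts take each peak singly. The Trav9 peaks past the start overlapped each other on 1 segment in DP 2, and the 3 Trav21 peaks fell into 1 region (53876401 to 53876950). Trav13 also held 3 of the 4 segments with a DN peak. In the Trav15 family 2 of 9 segments and in Trav6 2 of 15 were DP-only. No segment of the large families Trav3 (8 members), Trav4 (9), Trav5 (9), Trav7 (14) and Trav9 (11) had a peak in both DP lists, though 2 or 3 members of each had one in a single DP list. Many members of these large families carry a d or n mark and lie outside the proximal part. Whether copy or position accounts for their lack of peaks in both DP lists was not tested. Altogether 12 of 25 families had a DP-only segment. The 6 families without a peak of midpoint inside the interval in any list were Trav16 and the single-member families Trav1, Trav17, Trav19, Trav22 and Trav23, of which Trav1 was covered by the peaks just outside it. Of the 10 families of 1 segment 8 lie in the proximal part, so family and position cannot be told apart for them.

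Segments that can serve the delta chain were among those with DP peaks. All 3 Trdv segments had a peak in DP 2 and 2 of them (Trdv1 and Trdv2-2) in DP 1, against 0 in each DN list. Of the 10 Trav/Dv segments 4 had a peak in DP 1 and 6 in DP 2, against 0 in each DN list. In the proximal part, where 6 of the 10 lie, the numbers were 4 and 5 of 6 for Trav/Dv segments and 11 and 18 of 37 for segments of the alpha chain alone. Of 16 pseudogenes 2 were DP-only, a share of 12.5%, against 11.97% of the other segments.

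The duplicated copies differed in how many of their segments had DP peaks. A set of 32 names exists as a d copy, an n copy and an unmarked copy. Of these 32, 20 unmarked segments had a peak in at least 1 DP list, against 5 n copies and 2 d copies. All unmarked segments of these sets lie in the proximal part, and all n and d copies lie outside it. Copy and position thus cannot be told apart here. Peaks in both DP lists were found at 9 unmarked, 3 n and 0 d copies. The n copies with such peaks were not simply those of the unmarked ones: Trav6n-6 and Trav8n-2 had peaks in both DP lists while Trav6-6 and Trav8-2, named after their values were seen, had none, and the name Trav13-4 alone had both DP peaks in 2 copies. Of the 34 pairs of d and n copies 20 were identical in annotated length, and of the 32 full sets 10 had the same length in all copies. A missing peak on a copy does not show a closed segment.

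**Figure D4:**
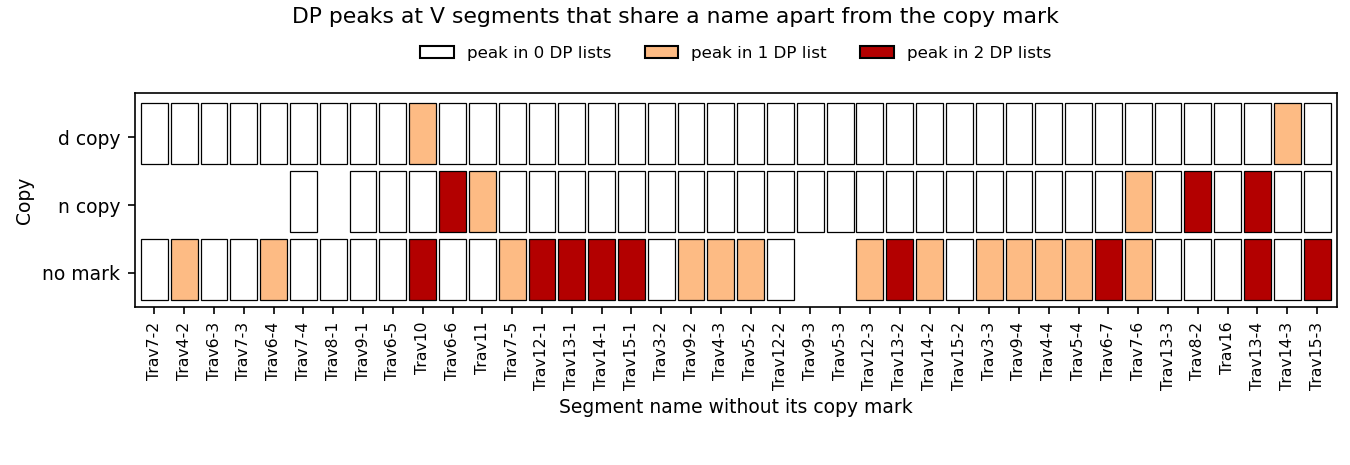
Number of DP lists with a peak within 500 bp of each V segment, for the segment names that exist in more than 1 copy, in order of the d copies along the locus; rows are the d, the n and the unmarked copy, and a gap means that no segment of that name is annotated. The unmarked row holds most of the filled cells, and no d copy had a peak in both DP lists.

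Outside the segments, 5 DP-only regions lay farther than 500 bp from any of them, all in the proximal part. The region 53541501 to 53542100, 2763 bp past Trav12-1, had the third best mean rank of the DP-only regions, with 29.7% of DP 1 peaks and 7.38% of DP 2 peaks at a lower p-value. Regions at a similar distance past a segment followed Trav15-1-dv6-1 (53562501 to 53563000, 2254 bp) and Trav13-2 (53637601 to 53638150, 2202 bp), and DP 2 alone had one past Trav7-6 (53719651 to 53720100, 2360 bp). These distances are to the nearest segment only, and the regions also have a V segment on their other side. Before Trav16 a DP-only region lay 1424 bp away (53741151 to 53741750), and before its copy Trav16n a DP 1 peak lay at the like distance of 1590 bp; Trav16, Trav16n and Trav7-6 were named after their values were seen. The region before Trav13-5 (53794401 to 53794950) missed the limit by 5 bp. In the distal part 2 DP 1 peaks lay over olfactory receptor genes between Trav1 and Trav2, namely Olfr1509 and Olfr1507.

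All 5 DN peaks of the interval are accounted for. DN 1 had them on Trav13d-4, Trav13-1 and Trav13-5. DN 2 had them 5 bp before Trav18 and 1989 bp before Trav17 (53804151 to 53804650). No DN peak overlapped a peak of the other DN list, while over the whole lists 35.2% of DN 1 peaks overlapped a DN 2 peak and 41.2% of DN 2 peaks a DN 1 peak. Of the 5, 4 overlapped a region that also held a DP peak, and the exception was Trav13d-4. Of the DP 1 peaks of the interval 22 of 38 (57.9%) overlapped a DP 2 peak, and of the DP 2 peaks 24 of 52 (46.2%) overlapped a DP 1 peak, against 64.9% and 36.7% of the whole lists. The DP peaks of the interval were of middling strength, with a median of 49.1% of DP 1 peaks and 35.7% of DP 2 peaks at a lower p-value.

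The V segments of Tcrb and of the immunoglobulin heavy chain locus (Igh) were counted the same way. Of 35 Tcrb V segments, 14.3% and 25.7% had a peak in DP 1 and DP 2, against 40% and 34.3% in DN 1 and DN 2. The Tcra interval thus stood within 4 percentage points of Tcrb in the DP lists while in the DN lists Tcra minus Tcrb was -37.7 and -33.5 points. The difference between stages was larger at Tcra by 37.8 points (exact permutation p = 0.333, two-sided). Of 183 Igh V segments, which are joined in B cells, 28.4% and 33.9% had a peak in the DP lists, against 6.01% and 2.73% in the DN lists. Igh thus leaned to DP as well, and its stage difference set against that of Tcra gave -6.10 points for Tcra minus Igh (exact permutation p = 0.333, two-sided).

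**Figure D5:**
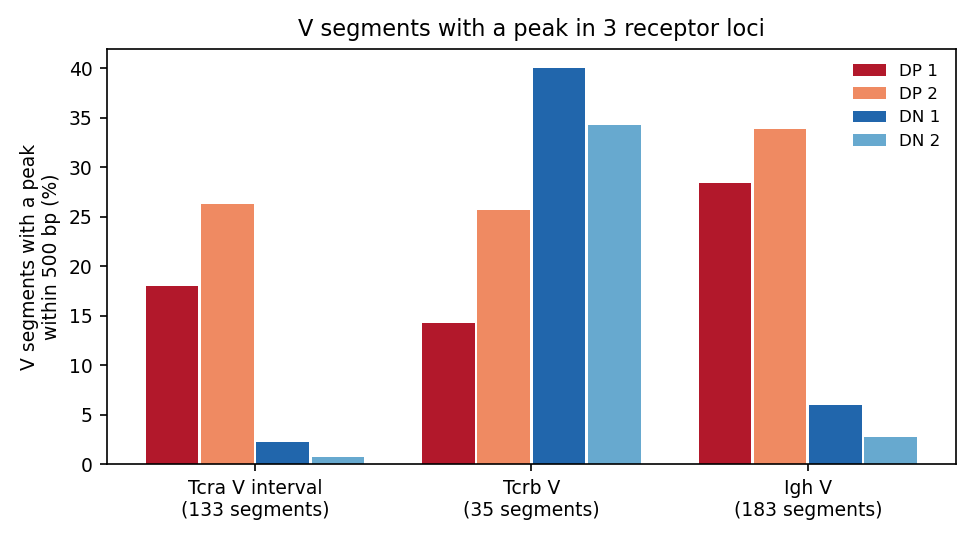
Percentage of V segments with a peak within 500 bp in each list, for the Tcra V interval (133 segments), Tcrb (35) and Igh (183). The DP bars exceed the DN bars at Tcra and Igh, and the DN bars exceed the DP bars at Tcrb.

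The genes that act on Tcra joining were read from the same lists. Of 22 genes of the recombinase, end joining, loop formation and locus regulation, DP-only regions outnumbered DN-only ones in the span of 10. This is a larger share than the 18.3% of all protein-coding genes with that pattern. The reverse held for 2 of the 22, against 3.81% of all protein-coding genes. Neither comparison matches genes by span or number of peaks. Of the 22, 21 and 22 had a peak in DP 1 and DP 2, and 20 and 15 in DN 1 and DN 2. Among the 10 were the recombinase genes Rag1 and Rag2, the ligase gene Lig4 and the transcription factor genes Myb, Ets1, Runx1, Tcf3, Tcf7 and Lef1. Runx1 had 6 DP-only regions, Lef1 4 and Ets1 3. Myb held 2 and 4 peaks in DP 1 and DP 2, against 0 in each DN list. The 2 genes leaning to DN were Xrcc4, an end joining factor, and Rad21, a cohesin subunit, with 1 DN-only region each.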

How the data were processed

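The submitters' processing notes name the build mm10 and the tools Bowtie2 and Picard, per the labels. The peak caller is known only from the name PeakDEck of the deposited lists, while for its settings, duplicates and multiply mapped reads nothing is given in the sources used here. One list was deposited per sample, with a p-value per peak computed by the authors; it was used only to rank peaks within a list. Peaks lie on a grid of 50 bp, are at least 300 bp wide, and 29.1 to 44.2% per list are tied at its largest p-value.

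Peaks with midpoint between Trav1 and Trav23 were used (coordinates from 1). Segment positions, without strand, came from RefSeq genes of GRCm38. Peaks sharing 1 bp were merged into regions on chromosomes 1 to 19, X and Y. Single values were compared by exact permutation over the 4 samples, with 3 splits and a smallest p of 0.333. Members, gene lists and naming rules were chosen with earlier results of these data known. Named are segments with peaks in both DP lists or any DN list, the outermost segments and those by the 5 best regions. Planned promoter sequences and motifs were not used here, since no V segment was in the promoter table. The labels' replicate numbers share no stated batch, and deviations of same-numbered samples had a correlation of 0.0207 over 107621 regions. Between any pair of lists, identical coordinates made up at most 6.26% of the shorter one. Code was tested on simulated lists. Tools were scipy 1.17.1, pandas 2.3.3, numpy 2.4.6, matplotlib 3.10.9 and Python 3.11.15. Values of 1 listed gene are not reported here.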

Additional observations from a re-analysis of the deposited data

How the results depend on the processing

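The differences between DP and DN in peaks, segments with a peak and proximal excess kept their sign under all 40 alternatives run for them, with exact permutation p of 0.333 to 0.667, so none could pass a threshold. With the replicate number as a block (sign flips within pairs) the differences were 42.5 peaks, 27.5 segments and 36.1 points, each with an exact permutation p of 0.5. Without 1 list at a time they ranged from 35.5 to 49.5 peaks, 22 to 33 segments and 27.8 to 44.4 points. In the top 50% of each list DP-only segments numbered 10 and DP-only regions 13, against 16 and 20. With 1 list left out, DP-only segments ranged from 17 to 32, regions from 20 to 44 and families with a DP-only segment from 12 to 17; the highest of each came without DP 1, when DP 2 alone stands for its stage, and without DP 2 there were 34 regions. In the top 50%, with every list limited to the shortest, or without peaks tied at the largest p-value, 8 families had a DP-only segment, against 12. Counting peaks whatever their midpoint, alone or with unmarked segments only (a difference in proximal excess of 12.2 points), was added after seeing the data. Unknown depth limits every absence.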
